A study of Danio rerio with 4 samples.

Results

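Cells with a p53-type stress response were described in single-cell RNA-seq (scRNA-seq) data of zebrafish embryos at the shield stage, when gastrulation has begun. A cell was counted as such when it held at least 3000 unique molecular identifiers (UMIs, the counted mRNA molecules) and a value over 0.5 for at least 4 of 6 genes, namely phlda3, foxo3b, casp8, cdkn1a, zgc:64022 and mdm2, where mdm2 is the sum of its 2 entries in the matrix. In all, 608 of 14455 deposited cells met this rule, and 10730 further cells had at least 3000 UMIs without meeting it. They are called p53-response cells and remaining cells here, and the 6 genes are called the rule genes.

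The cells came from 4 libraries, 2 of Mrbm24a embryos (Mrbm24a 1 and Mrbm24a 2) and 2 of siblings, whose genotype the labels give as wild type (sibling 1 and sibling 2). Mrbm24a embryos lack the maternal supply of Rbm24a, an RNA-binding protein. Their mothers carried a homozygous rbm24a-RFP knock-in with Cas9 under the zpc promoter, which is active in oocytes, and a transgene with guide RNAs against rbm24a and a BFP marker, and embryos with BFP but no Rbm24a-RFP were taken as mutants. The sources used here do not state whether the siblings also carried Cas9 or the guide RNAs, so that genome cutting and loss of Rbm24a cannot be told apart between the genotypes. The mothers were founders, which can differ in how they carry the transgene. Whether the 2 libraries of a genotype came from separate pools of embryos is not stated, so p-values measure only the spread between libraries, which may be technical. Transcripts of rbm24a itself were sparse, at 0.174 and 0.214 CPM (UMIs of a gene scaled to a common total per library and cell group) in p53-response cells of Mrbm24a 1 and 2 against 1.00 and 0.404 CPM in those of sibling 1 and 2, and reads from transcript ends cannot reveal the edited alleles. Sets of 4 values stand for Mrbm24a 1, Mrbm24a 2, sibling 1 and sibling 2.

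The transcription factor p53 is stabilised by DNA damage, by faults in ribosome assembly and by other stresses. It then switches on genes that stop the cell cycle (cdkn1a, the p21 inhibitor of cyclin-dependent kinases), genes that promote cell death (bbc3, which encodes Puma, and baxa, which encodes Bax) and mdm2, the ubiquitin ligase that degrades p53 and so closes a feedback loop. Phlda3 restrains Akt signalling in mammals, foxo3b encodes a forkhead transcription factor and casp8 encodes the initiator caspase of death receptors. No function is given here for zgc:64022.

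The rule genes are described with their values only, since they chose the cells. The 4 libraries gave 171, 215, 140 and 82 p53-response cells. Levels of phlda3 were 95.4, 73.8, 135 and 163 CPM in p53-response cells, against 7.32, 4.69, 2.98 and 3.02 CPM in the remaining cells. Levels of cdkn1a were 124, 103, 156 and 199.6 CPM in p53-response cells, against 30.9, 28.1, 21.7 and 20.8 CPM in the remaining cells. Every rule gene thus had its p53-response and remaining cells well apart in each library. The gene most often found in p53-response cells was mdm2, detected in 96.5%, 96.7%, 97.9% and 97.6% of them. The gene least often found was zgc:64022, detected in 54.4%, 60.0%, 42.1% and 57.3% of p53-response cells, against 6.60%, 7.78%, 4.25% and 5.06% of remaining cells.

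The number of detected rule genes ran from 0 to 6, and whether the p53-response cells form a separate type was not tested. Just inside the rule were 247 cells with 4 detected rule genes, and just outside it were 415 cells with 3. A further 215 cells had 5 and 146 cells had all 6. The summed level of 60 matrix entries of other p53 targets, none of them a rule gene, was 1696, 1616, 1730.2 and 1618 CPM in cells with 3 rule genes. It was 1954, 1750.4, 2879.9 and 1998 CPM in cells with 4, and 3333, 2181, 3366 and 3077 CPM in cells with all 6. Cells with no rule gene had 1563, 1549, 1492 and 1381 CPM. Abundant entries weigh most in this sum, so its rise does not show a rise of most entries. Of them, zgc:136826 had 572, 450.2, 837 and 468 CPM in p53-response cells, against 116, 99.7, 76.3 and 39.7 CPM in remaining cells. For sesn3 the levels were 358, 243, 461 and 416 CPM, against 124, 116, 113 and 104 CPM. In each library the summed level was higher with 3 rule genes than with 0, with 4 than with 3 and with all 6 than with 4. The step from 3 to 4 was small in Mrbm24a 2. The sum did not rise with every added gene. In sibling 1 it was 1492, 1484 and 1473 CPM with 0, 1 and 2 rule genes, and 2879.9 and 2805 CPM with 4 and 5. For bbc3 the level was 8.15, 6.89, 11.4 and 13.4 CPM in cells with 4 rule genes and 5.92, 6.12, 5.69 and 5.28 CPM in cells with 3, against 1.88, 1.36, 0.759 and 1.12 CPM in cells with none, so cells just outside the rule were also above cells with none.

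**Figure D1:**
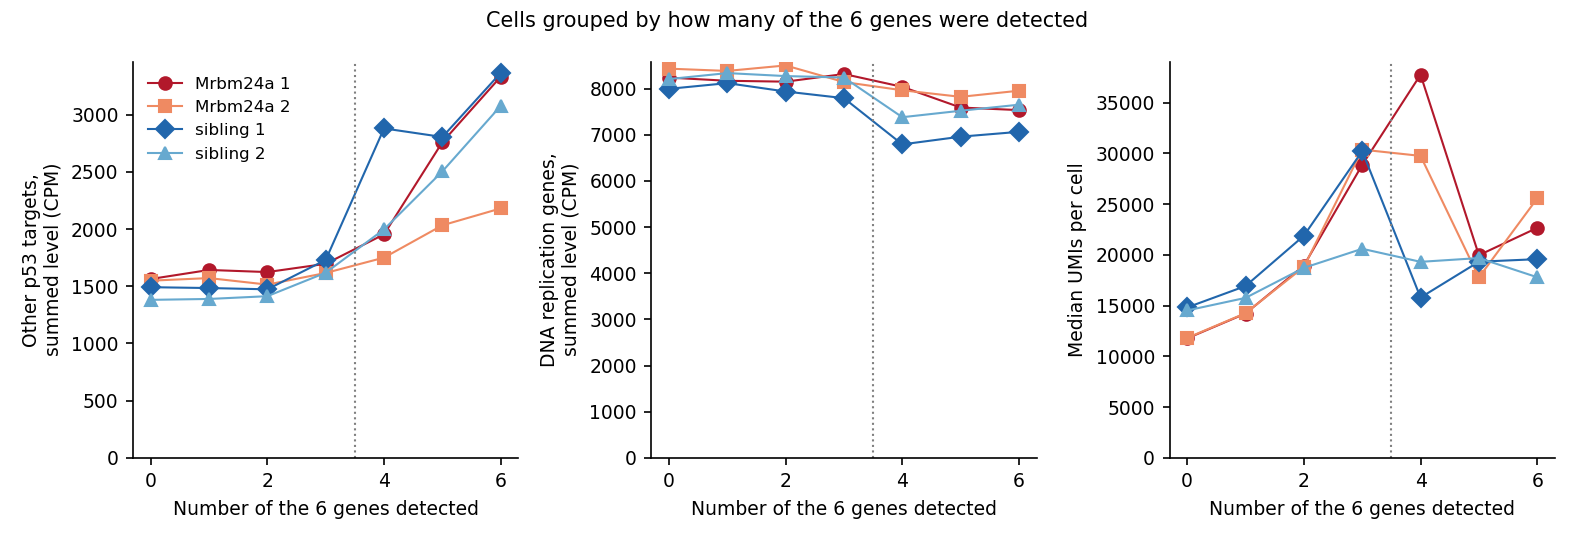
Cells with at least 3000 UMIs, grouped on the horizontal axis by how many of the 6 rule genes were detected; the vertical axes give the summed level of the other p53 targets (CPM), the summed level of DNA replication genes (CPM) and the median UMIs per cell, with 1 line per library and the limit of the rule as a dotted line. Other p53 targets reached 3333, 2181, 3366 and 3077 CPM in cells with all 6 genes, and the median depth of cells with 3 genes was 28858, 30365, 30221 and 20595 UMIs.

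The p53-response cells were also deeper than the rest, which raises the chance of detecting any gene. Their median number of UMIs was 27418, 25000.1, 18390 and 18654, against 13864, 13467, 16092 and 15325 in the remaining cells, a ratio of 1.98 and 1.86 in the Mrbm24a libraries and of 1.14 and 1.22 in the sibling libraries. Over 20000 UMIs were held by 64.3%, 56.3%, 41.4% and 43.9% of p53-response cells, against 25.4%, 22.8%, 28.6% and 22.7% of remaining cells. The median mitochondrial share of UMIs was 0.44%, 0.75%, 1.26% and 1.34% in p53-response cells, against 0.62%, 0.98%, 1.41% and 1.59% in the remaining cells, so it was lower in p53-response cells of all 4 libraries. The authors had removed doublets with Scrublet, and no further doublet caller was run. Of the barcodes, 16 occurred in 2 libraries, but none of these was a p53-response cell.

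Other p53 targets were at higher levels in the shallower p53-response cells, and these values were not tested. The rule asks for a fixed value, which is a higher CPM in a shallower cell. Shallow and deep p53-response cells were thus not selected alike, and their order is no result about the cells. In those with 3000 to 20000 UMIs, the other p53 targets summed to 4080, 3801, 4044 and 3439 CPM, against 1637, 1596, 1539.7 and 1409 CPM in remaining cells of that depth. In p53-response cells over 20000 UMIs the sums were 2170.0, 1706, 2393 and 2005 CPM, against 1603, 1516, 1455 and 1374 CPM in remaining cells over 20000 UMIs. At both depths the p53-response cells lay above the remaining cells in every library, and the deep cells lay between the shallow ones and the remaining cells. For bbc3 the levels were 50.2, 59.7, 48.1 and 51.2 CPM in the shallower p53-response cells, against 2.40, 1.81, 1.16 and 1.45 CPM in remaining cells of that depth.

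Genes outside the rule were compared between p53-response and remaining cells on values summed per library and cell group, with the library as a block, by edgeR's quasi-likelihood test with Benjamini-Hochberg adjustment. Of 15171 genes tested, 126 were higher (0.831% of the genes tested) and 16 lower (0.105%) in p53-response cells at an adjusted p under 0.05, and 2303 had an unadjusted p under 0.05. Of the 126 genes, 125 were higher in all 4 libraries, and all 16 lower genes were lower in all 4. The change spanned 0.32 to 5.37 on the log2 scale among the higher genes and -1.79 to -0.41 among the lower ones.

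Some known p53 targets were among the genes that rose. The list of them was chosen with earlier results of these data known, so its contrast with all genes is a description and no independent support. A list of 50 such genes outside the rule matched 60 entries of the matrix, of which 31 passed the filter on low counts. Of these, 9 were higher and 0 lower in p53-response cells, which is 29.0% of the entries tested against 0.831% of all genes. The other 22 did not pass the test, with log2 changes of -0.47 to 0.48, of which 7 were above 0. The median over the 31 entries was 0.03, against -0.01 over all genes, so the list split into a small group with large changes and a larger group near 0.

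Among the targets that promote cell death, bbc3 had 19.0, 15.5, 22.9 and 27.6 CPM in p53-response cells, against 2.55, 2.07, 1.17 and 1.39 CPM in the remaining cells. Its log2 change was 3.61 ± 0.26 (SE, edgeR, 4 libraries; adjusted p = 0.00029), and the cell groups did not overlap. For baxa the levels were 73.6, 61.6, 107 and 128.5 CPM in p53-response cells, against 32.6, 33.7, 31.4 and 34.1 CPM in the remaining cells (log2 change 1.51 ± 0.14, edgeR adjusted p = 0.0010). The remaining cells of the 4 libraries were nearly equal in baxa, while sibling p53-response cells lay above the deeper Mrbm24a ones. In p53-response cells of 3000 to 20000 UMIs baxa had 173 and 158 CPM in Mrbm24a 1 and 2, against 178 and 213 CPM in sibling 1 and 2. Other genes of this function did not pass the test, among them pmaip1 (Noxa, log2 change 0.34) and perp, which encodes a desmosome protein and had 17.1, 21.4, 49.9 and 58.0 CPM in p53-response cells, against 43.5, 37.6, 56.8 and 48.7 CPM in the remaining cells.

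Among the targets that slow growth or act in stress defence, the sestrins restrain the growth-promoting kinase complex mTORC1. For sesn3 the levels were 358, 243, 461 and 416 CPM in p53-response cells, against 124, 116, 113 and 104 CPM in the remaining cells (log2 change 1.74 ± 0.13, edgeR adjusted p = 0.00029). For sesn1 they were 21.1, 16.6, 20.9 and 23.4 CPM in p53-response cells, against 5.17, 4.72, 3.73 and 3.23 CPM in the remaining cells (log2 change 2.34). Both sestrins rose in all 4 libraries, whereas the related sesn2 did not pass the test, with a log2 change of -0.10. The Gadd45 genes, whose products bind cell cycle and stress kinases, differed among themselves: gadd45aa rose by 3.14 ± 0.22 on the log2 scale and gadd45bb by 0.92 ± 0.17, while gadd45ba had a change of -0.28 ± 0.23 that did not pass. The gene rbm38, a p53 target in mammals and a relative of rbm24a, had 118, 102, 84.7 and 94.7 CPM in p53-response cells, against 117, 111, 115 and 127 CPM in the remaining cells, without passing the test.

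The gene zgc:136826, for which RefSeq (assembly GRCz12tu) gives the symbol rps27l, encodes a ribosomal protein S27-like protein that is a p53 target in human cells. It had 572, 450.2, 837 and 468 CPM in p53-response cells, against 116, 99.7, 76.3 and 39.7 CPM in the remaining cells (log2 change 2.96 ± 0.22, edgeR adjusted p = 0.00031). All 4 libraries thus showed the rise, and its level in the remaining cells was lower in siblings. The ubiquitin-like modifier isg15, an interferon-stimulated gene, had 23.1, 13.7, 70.28 and 91.3 CPM in p53-response cells, against 1.98, 2.37, 1.46 and 1.79 CPM in the remaining cells (log2 change 4.44 ± 0.47, edgeR adjusted p = 0.0023). Its sibling p53-response cells lay far above those of Mrbm24a, while the remaining cells of all libraries were alike.

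Among regulators of the pathway, the Mdm2 partner gene mdm4, the phosphatase gene ppm1da and the deubiquitinase gene usp7 did not pass the test, with log2 changes of -0.14, -0.02 and -0.11.

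**Figure D2:**
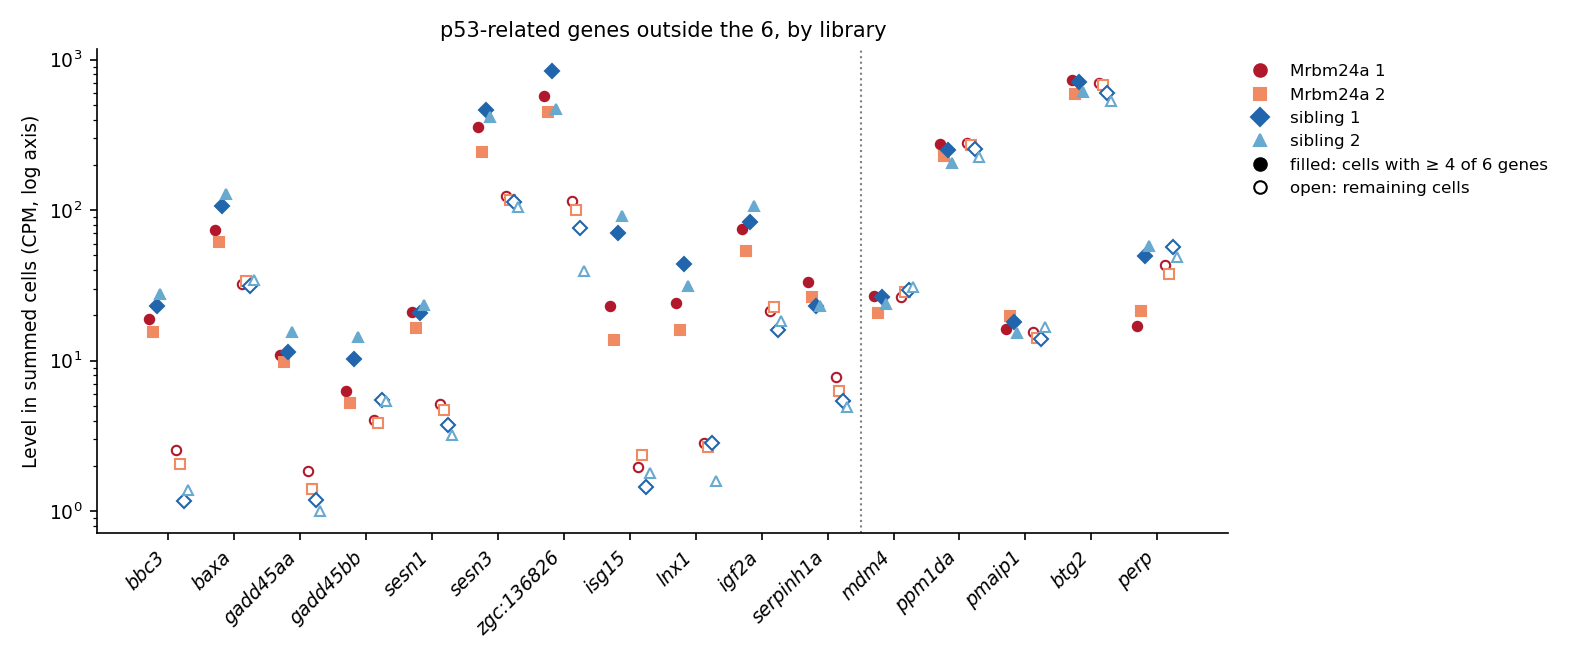
Levels of 16 p53-related or strongly changed genes outside the rule, in CPM on a log axis, with 1 symbol per library, filled for p53-response cells and open for remaining cells of the same library. Left of the dotted line are genes that passed the test, such as bbc3 at 15.5 to 27.6 CPM in p53-response cells and 1.17 to 2.55 CPM in remaining cells; right of it are p53-related genes that did not.

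Detection in single cells was compared after thinning to 3000 UMIs. A UMI of bbc3 was found in 7.60%, 8.37%, 7.86% and 14.6% of p53-response cells, against 0.673%, 0.861%, 0.441% and 0.660% of remaining cells. A UMI of zgc:136826 was found in 74.3%, 75.3%, 85.0% and 73.2% of p53-response cells, against 29.4%, 21.4%, 18.1% and 10.52% of remaining cells. These genes were thus found more often in p53-response cells of every library at equal depth, and unthinned shares of bbc3 were 44.4%, 42.3%, 40% and 45.1% of p53-response cells, against 4.29%, 3.44%, 2.14% and 2.29% of remaining cells.

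The 15 largest rises among genes with at least 20 CPM in p53-response cells had log2 changes of 1.74 to 4.54. Besides bbc3, isg15, zgc:136826, sesn1 and sesn3 they held si:dkey-204l11.1, for which RefSeq lists the older symbol tnfrsf27, a receptor of the tumour necrosis factor family. It had 36.3, 23.2, 44.8 and 78.6 CPM in p53-response cells, against 2.72, 2.11, 1.30 and 1.45 CPM in the remaining cells (log2 change 4.54 ± 0.33, edgeR adjusted p = 0.00029). The ubiquitin ligase gene lnx1 rose by 3.52, the scaffold gene entry grasp_1 by 3.499, the collagen chaperone gene serpinh1a by 2.22, the growth factor gene igf2a by 2.06 and the gene pik3r3a, for a regulatory subunit of phosphoinositide 3-kinase, by 1.91. For igf2a the levels were 75.1, 53.8, 83.3 and 107 CPM in p53-response cells, against 21.4, 22.9, 16.1 and 18.3 CPM in the remaining cells. The rest of the 15 were gtpbp1l (2.04) and the uncharacterised LOC101885512 (3.29), si:zfos-80g12.1 (2.59) and LOC108182399 (1.86). The 46 other risers at this level had log2 changes of 0.32 to 1.67.

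The falls were small. The 10 largest among genes with at least 20 CPM in the remaining cells ran from -0.73 to -0.44 on the log2 scale. They were led by mt-rnr2, the large ribosomal RNA of the mitochondrion, with 4389.5, 4276, 9729 and 11223 CPM in p53-response cells, against 9025, 9191, 13810 and 17535 CPM in the remaining cells. Among the others were the ephrin gene efnb2b (-0.54), the protocadherin gene pcdh8 (-0.52) and the versican gene vcana (-0.47), besides the anchoring protein entry akap12b_1 (-0.59), the inner nuclear membrane gene lemd3 (-0.46), the Hes-type repressor her3 (-0.44) and the uncharacterised LOC110438146, LOC100334495 and LOC100331412.

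Depth and single libraries touched the rises and the falls unequally. Against the 5 remaining cells of the same library nearest in UMIs to each p53-response cell, edgeR called 104 genes higher and 16 lower; all 15 large rises and 8 of the 9 p53 targets were still called, but only akap12b_1 of the 10 falls. Depth was not fully matched in the Mrbm24a libraries, where the p53-response cells had medians of 27418 and 25000.1 UMIs, against 23867 and 22063 UMIs in those nearest remaining cells. With cells of 3000 to 20000 UMIs only, a setting chosen after seeing the data, 362 genes were higher and 493 lower, with all 15 rises, all 9 targets and all 10 falls among them. The number of calls was 265 without Mrbm24a 2, 66 without sibling 1 and 81 without sibling 2, and the 15 large rises were called in each of these fits, against 8, 3 and 3 of the 10 falls.

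Lists of other stress programmes held no called gene. No entry passed the test in the lists of the integrated stress and unfolded protein response (21 tested, median log2 change -0.05), heat shock (17 tested, 0.01), immediate early genes (18 tested, -0.23) and ribosome assembly (27 tested, 0.09), beside 0.831% higher and 0.105% lower over all genes. For the small heat shock protein gene hspb1 the levels were 11529, 15696, 12116 and 11352 CPM in p53-response cells, against 10354, 10728, 10057 and 10057 CPM in the remaining cells (edgeR adjusted p = 0.15). Of 25 entries of the apoptosis machinery other than the p53 targets, none passed (median 0.07), which is again near the background. Of 36 entries for DNA damage signalling and repair only xrcc5, which encodes the Ku80 end-joining protein, was called, with 38.2, 35.1, 44.4 and 54.7 CPM in p53-response cells, against 29.1, 28.4, 31.1 and 35.7 CPM in the remaining cells (log2 change 0.54 ± 0.07).

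Genes of proliferation were not called. None of 31 entries for DNA replication and none of 25 for mitosis passed, with medians of -0.03 and 0.00 on the log2 scale; beside 0.831% higher and 0.105% lower over all genes, a count of 0 in lists of this size is near the background. The summed replication genes were at 7826, 7913, 6919 and 7503 CPM in p53-response cells, against 8204, 8398, 8022 and 8262 CPM in the remaining cells, and so were lower in all 4 libraries by a small amount that was not tested as a sum. The summed mitosis genes were at 14522, 15103, 13950.1 and 14272 CPM in p53-response cells, against 14252, 14581, 14044 and 14289 CPM in the remaining cells.

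**Figure D3:**
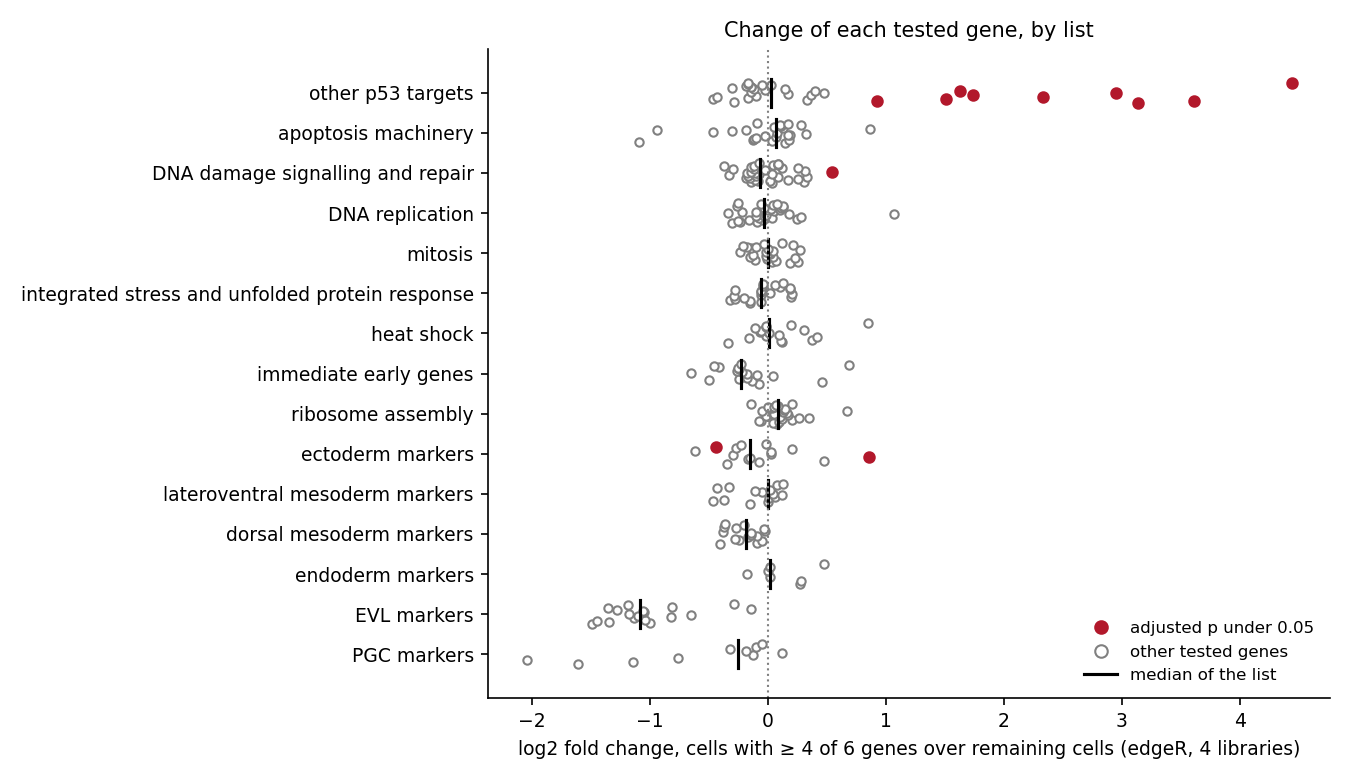
Log2 fold change of every tested gene of 15 lists in p53-response over remaining cells, from the fit over 4 libraries, with called genes in red, other genes open and the median of each list as a black bar. The 9 called p53 targets lie between 0.92 and 4.44, while most lists are centred within 0.3 of 0 and EVL markers have a median of -1.08 with no called gene.

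Markers of every germ layer were found in p53-response cells. After thinning every cell to 3000 UMIs, to remove the difference in depth, at least 2 ectoderm markers were found in 74.4 ± 2.7% of p53-response cells and 72.9 ± 1.2% of remaining cells (mean ± SD, n = 4 libraries). For lateroventral mesoderm the share was 76.6 ± 6.7% of p53-response cells and 75.7 ± 4.3% of remaining cells, for dorsal mesoderm 50.3 ± 4.9% of p53-response cells and 50.6 ± 6.5% of remaining cells, and for endoderm 20.4 ± 5.1% of p53-response cells and 19.3 ± 6.0% of remaining cells. Markers of dorsal forerunner cells were found in 69.7 ± 8.8% of p53-response cells and 70.5 ± 4.7% of remaining cells. A list that most cells of both groups meet does not single out this cell type. It shares sox17, sox32 and vgll4l with the endoderm list and tbx16 with the lateroventral mesoderm list. It was left out where cells were given to a leading list. A cell can meet several lists, so these shares do not assign cells to lineages. None of 8 marker lists differed in the same direction in all 4 libraries, and exact sign-flip permutation tests over the 4 library pairs gave p of 0.375 to 1 before and 1 after adjustment over the 8 lists; 4 pairs cannot reach a two-sided p under 0.05. With at least 3 markers asked for, ectoderm shares were lower in all 4 libraries, at 44.1% of p53-response cells and 51.8% of remaining cells on average.

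When each thinned cell was given to the list with most of its markers detected, lateroventral mesoderm led 53.2%, 49.3%, 35% and 34.1% of p53-response cells, against 44.5%, 38.3%, 37.2% and 38.6% of remaining cells. This share was higher in p53-response cells of both Mrbm24a libraries and lower in those of both sibling libraries, and the difference between the genotypes was not tested. Ectoderm led 18.7%, 20%, 23.6% and 32.9% of p53-response cells, against 20.4%, 28.8%, 33.7% and 33.2% of remaining cells. Ectoderm-led cells were thus fewer among p53-response cells in all 4 libraries, by 5.23 percentage points on average (exact permutation test, at the smallest p that 4 pairs allow). By lineage, p53-response cells made up 7.93%, 8.70%, 3.98% and 3.09% of cells led by lateroventral mesoderm, 6.19%, 4.89%, 2.99% and 3.46% of those led by ectoderm, and 5.37%, 6.01%, 7.69% and 3.19% of those led by dorsal mesoderm. Both Mrbm24a libraries thus lay above both sibling libraries for lateroventral mesoderm and ectoderm, but not for dorsal mesoderm. Only the leading list came from thinned cells. The rule was applied to unthinned values, so these shares were not compared at equal depth, and their genotype differences were not tested. No single list led 16.4%, 14.4%, 17.9% and 22.0% of p53-response cells, against 17.8%, 17.3%, 13.9% and 13.2% of remaining cells.

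**Figure D4:**
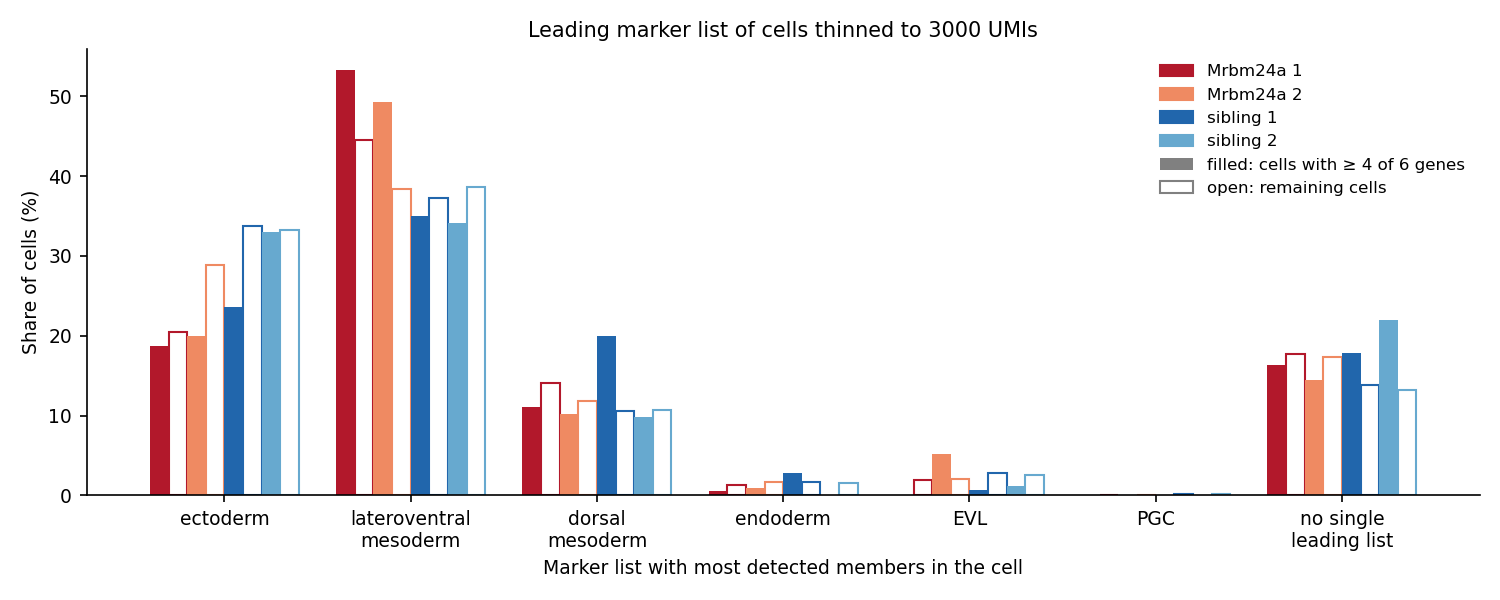
Share of cells (%) by the marker list with most members detected, in cells thinned to 3000 UMIs, with filled bars for p53-response cells and open bars for remaining cells of the same library. Lateroventral mesoderm led 53.2% and 49.3% of p53-response cells in the Mrbm24a libraries and 35% and 34.1% in the sibling libraries, and PGC markers led none.

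Among germ-layer markers, 2 of the 15 ectoderm entries tested passed the test, in opposite directions. The forkhead gene foxi1, a marker of non-neural ectoderm, had 26.1, 19.5, 25.2 and 44.4 CPM in p53-response cells, against 12.0, 13.5, 18.3 and 22.9 CPM in the remaining cells (log2 change 0.86 ± 0.11, edgeR adjusted p = 0.0071). The neural ectoderm gene her3 fell by 0.44, but was not called against the remaining cells nearest in UMIs. No marker of lateroventral mesoderm (15 tested), dorsal mesoderm (16 tested) or endoderm (7 tested) was called, which is near the background of 0.831% higher and 0.105% lower over all genes. The 16 dorsal mesoderm entries all had changes below 0, from -0.40 to -0.02, without any passing. Of all 15171 genes tested, 7260 had changes above 0.

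Markers of the enveloping layer (EVL), the outer epithelium of the embryo, gave no called gene. Over all genes 0.831% were higher and 0.105% lower, so 0 calls in a list of this size is near the background. All 18 tested EVL entries had log2 changes below 0, with a median of -1.08, while 7260 of all 15171 genes tested had changes above 0. The signs of the entries were not tested as a set. Their summed level was 24.8, 1418, 2098 and 2715 CPM in p53-response cells, against 1997, 1937, 2777 and 2987 CPM in the remaining cells. After thinning to 3000 UMIs the sums were 54.6, 440.3, 900 and 1394 CPM in p53-response cells, against 1417, 1481, 2480.0 and 2190.3 CPM in the remaining cells. The sums were thus below those of remaining cells in each library, while the share of thinned cells with at least 2 EVL markers was 2.34%, 8.84%, 9.29% and 2.44% of p53-response cells, against 8.54%, 5.03%, 8.82% and 6.87% of remaining cells, and so lower in 2 libraries and higher in 2. In Mrbm24a 1, none of 171 p53-response cells was led by EVL markers, where 3 cells would be a share of 1.75%. In Mrbm24a 2 the EVL led 5.12% of p53-response cells, against 1.998% of remaining cells, and 11 of its 69 EVL-led cells (15.9%, exact 95% interval 8.24 to 26.7%) were p53-response cells. Those 69 cells had a median of 21381 UMIs. Among all cells of this library over 20000 UMIs, 15.4% were p53-response cells. The 47 EVL-led cells of Mrbm24a 1 had a median of 23419 UMIs and held 0 p53-response cells. EVL-led cells were not compared with other cells of equal depth.

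Markers of primordial germ cells (PGCs) led 0 of 608 p53-response cells, where 3 cells would be a share of 0.493%. They led 1, 0, 6 and 5 remaining cells of the 4 libraries, so a difference was not detectable at this number of cells. The PGC gene nanos3 had 3.83, 6.47, 13.1 and 9.90 CPM in p53-response cells, against 5.14, 5.92, 90.9 and 91.9 CPM in the remaining cells. Remaining cells of the sibling libraries, which held all but 1 of the PGC-led cells, were thus at the high level. In thinned cells a UMI of nanos3 was found in 0.585%, 2.79%, 3.57% and 6.10% of p53-response cells, against 1.43%, 1.83%, 3.78% and 2.86% of remaining cells, without a common direction.

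The share of p53-response cells was higher in both Mrbm24a libraries. It was 6.71% (exact 95% Clopper-Pearson interval 5.77 to 7.75%) and 6.89% (6.03 to 7.84%) of cells with at least 3000 UMIs in Mrbm24a 1 and 2, against 4.22% (3.56 to 4.96%) and 3.48% (2.78 to 4.31%) in sibling 1 and 2. The intervals cover counting error only. The mean difference was 2.95 percentage points, a ratio of 1.76, and the genotypes did not overlap, but 2 against 2 libraries cannot give a two-sided p under 0.333, which was the exact permutation p. All 6 rule genes were detected in 1.69% and 1.73% of cells of Mrbm24a 1 and 2, against 0.754% and 1.02% of cells of sibling 1 and 2.

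This difference moved with depth. Among cells over 20000 UMIs, p53-response cells made up 15.4% and 15.4% in Mrbm24a 1 and 2, against 5.998% and 6.52% in sibling 1 and 2. The genotypes were not at equal depth in this class. Its remaining cells had medians of 30337 and 29814 UMIs in Mrbm24a 1 and 2, against 26419 and 24203 in sibling 1 and 2. Among cells of 3000 to 20000 UMIs the shares were 3.32% and 4.03% in Mrbm24a 1 and 2, against 3.49% and 2.55% in sibling 1 and 2, so that the genotypes overlapped (exact permutation p = 0.667). Here the remaining cells were shallower in Mrbm24a, with medians of 10513 and 11494 UMIs, against 14151 and 13668 in sibling 1 and 2. After thinning to 3000 UMIs, at least 4 rule genes were found in 0.667% and 0.770% of Mrbm24a cells, against 0.332% and 0.807% of sibling cells, which again overlapped (exact permutation p = 1). At least 2 rule genes were found in 4.83% and 4.33% of thinned Mrbm24a cells, against 3.14% and 2.85% of thinned sibling cells, without overlap.

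**Figure D5:**
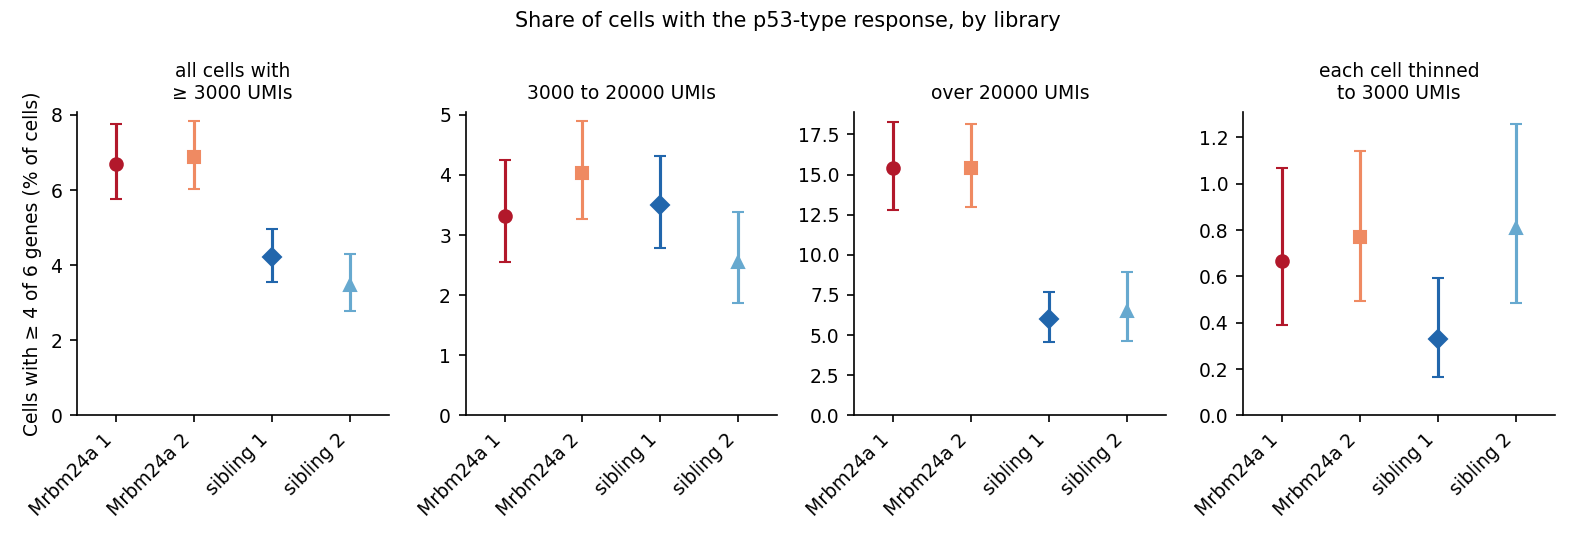
Share of cells (%) with at least 4 of the 6 rule genes in each library, with exact 95% intervals, for all cells with at least 3000 UMIs, for cells of 3000 to 20000 UMIs, for cells over 20000 UMIs and after thinning to 3000 UMIs; each panel has its own scale that starts at 0. The Mrbm24a libraries lie above the sibling libraries for all cells and for cells over 20000 UMIs, and overlap with them in the other panels.

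Few genes passed the test between the genotypes within p53-response cells. Of 10798 genes tested by edgeR, 0 were higher (0.0%) and 5 lower (0.0463%) in Mrbm24a at an adjusted p under 0.05, 936 had an unadjusted p under 0.05, and DESeq2 called 1 higher and 16 lower. Of the 28 other p53 targets tested, isg15 alone was called, with 23.1 and 13.7 CPM in Mrbm24a 1 and 2, against 70.28 and 91.3 CPM in sibling 1 and 2 (log2 change -2.06 ± 0.24, edgeR adjusted p = 0.045). This call was lost without sibling 1 or sibling 2 (edgeR adjusted p = 0.066 and 0.074) and with cells of 3000 to 20000 UMIs only (0.26).

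The other 4 called genes differed between the genotypes in the remaining cells as well. LOC110439627 had 8.50 and 2.48 CPM in Mrbm24a p53-response cells, against 222 and 125 CPM in sibling ones, and 53.1 and 13.9 CPM in Mrbm24a remaining cells, against 295 and 184.5 CPM in sibling ones. The entry si:dkey-286j15.1_1 had 13.9 and 14.8 CPM in Mrbm24a p53-response cells, against 51.4 and 63.3 CPM in sibling ones. LOC101883290 had no UMI in Mrbm24a p53-response cells and 5.61 and 5.57 CPM in sibling ones, which is at least 27.6-fold lower in Mrbm24a against a floor of 3 UMIs over the genotype. The entry pcf11_1 had 0.114 and 0 CPM in Mrbm24a p53-response cells, against 7.04 and 7.05 CPM in sibling ones. The number of called genes was 277 without Mrbm24a 1, 400 without Mrbm24a 2 and 1 without either sibling library.

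The change of p53-response over remaining cells was then compared between the genotypes as an interaction. Of 16276 genes tested by edgeR, 1 had a positive difference, Mrbm24a minus sibling (0.00614%), and 3 a negative one (0.0184%). With the entries of the rule genes counted in, 842 of 16283 had an unadjusted edgeR p under 0.05, a share near that threshold itself. The p53 targets isg15 and zgc:136826 rose less in Mrbm24a, by -2.51 ± 0.27 and -1.17 ± 0.12 on the log2 scale. For zgc:136826 the log2 ratio of p53-response to remaining cells was 2.31 and 2.17 in Mrbm24a 1 and 2, against 3.46 and 3.56 in sibling 1 and 2, where its remaining cells were at lower levels. The p53-response cells of Mrbm24a were also deeper than those of siblings. In p53-response cells of 3000 to 20000 UMIs zgc:136826 had 1253, 1177, 1367 and 779 CPM. Remaining cells of that depth had 113, 85.4, 73.8 and 39.6 CPM. For isg15 the levels were 77.8, 27.3, 102 and 165 CPM, against 2.17, 0.975, 1.42 and 1.67 CPM. LOC110439627 was lower in p53-response than in remaining cells, with log2 ratios of -2.64 and -2.49 in Mrbm24a 1 and 2, against -0.41 and -0.56 in sibling 1 and 2 (difference -2.02). For nanos3 the log2 ratios were -0.42 and 0.13 in Mrbm24a 1 and 2, against -2.80 and -3.21 in sibling 1 and 2 (difference 3.01). Its remaining cells had 5.14 and 5.92 CPM in Mrbm24a 1 and 2, against 90.9 and 91.9 CPM in sibling 1 and 2. Its p53-response cells had 3.83 and 6.47 CPM, against 13.1 and 9.90 CPM. Neither the calls nor their number were stable, since 1041 genes were called without Mrbm24a 1, 408 without Mrbm24a 2 and 0 without sibling 1 or without sibling 2.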

How the data were processed

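The deposited matrix holds expected counts, that is UMI counts estimated by the authors, with decimals. Per the study's methods, reads were filtered with Trimmomatic and UMIs counted per gene with Cell Ranger (version not given in the sources used here, genome build GRCz10 in the submitters' processing notes). DecontX was then used to subtract ambient RNA, Scrublet to take out doublets, and outlying barcodes were dropped. Genes are named by symbol, and a suffix marks further entries of a symbol, between which reads may be split. Cells were collected in batches per the study, which the labels do not tie to libraries. Library and genotype were taken from the labels and the barcode prefix. Depth was 2039830 to 9139647 UMIs in the p53-response cells of a library and 36827080 to 57888700 in the remaining cells, so genes under a few CPM rest on few UMIs.

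The decimal counts were summed per library and cell group, then rounded, and the sums were fitted with edgeR 4.0.16 under R 4.3.3. Low genes were dropped by filterByExpr, libraries were scaled by TMM, and quasi-likelihood p-values were adjusted by Benjamini-Hochberg over all genes. The 7 entries of the rule genes were left out of that adjustment where p53-response and remaining cells were compared. The script was tested on simulated data. Cells were thinned to 3000 UMIs with a fixed seed, and exact permutation tests over libraries were run with scipy 1.17.1. Alternatives were DESeq2 1.42.0, limma 3.58.1 on log2(CPM + 1), RLE factors, no filter, other gene numbers and depths, the remaining cells nearest in depth, no library block, the replicate number as a block and each library left out. Depth-limited fits and 5 genes for the genotype comparison were added after seeing the data. The genes named are those of the rule, called list members, the 15 largest rises and 10 largest falls with an adjusted p under 0.05, the same direction in 4 libraries and at least 20 CPM, and called genes of the genotype comparisons whose libraries do not overlap. The members and the lists were chosen with earlier results of these data known. No sequences are given, and 2 called list members are not reported here.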

Additional observations from a re-analysis of the deposited data

Results flagged for a closer look

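In 4 genes the change of p53-response over remaining cells differed between the genotypes in the interaction test (edgeR, adjusted p under 0.05, 2 libraries per genotype). The difference, Mrbm24a minus sibling on the log2 scale, was -2.51 for isg15, -2.02 for LOC110439627, -1.17 for zgc:136826 and 3.01 for nanos3. For nanos3 the genotypes differed mostly in the remaining cells, at 5.14 and 5.92 CPM in Mrbm24a against 90.9 and 91.9 CPM in siblings. With cells of 3000 to 20000 UMIs only, LOC110439627 was not called (-0.57), and without either sibling library none of the 4 was.

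Outside the cells that the report compares, 5 cells with under 3000 UMIs had at least 4 of the 6 rule genes, 2 of 852 in Mrbm24a 1 and 3 of 833 in Mrbm24a 2. Among such shallow cells there were 0 of 219 in sibling 1 and 0 of 1213 in sibling 2, with exact 95% upper limits of 1.67% and 0.304%.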

How the results depend on the processing

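The mean difference in the share of p53-response cells kept its sign with the other gene numbers, depths and thinning tried and with each library left out, between 0.149 and 9.15 percentage points. The number of genes called between p53-response and remaining cells was 142 and became 436 with DESeq2, 678 without a filter on low counts, 1128 with at least 3 rule genes and 855 at 3000 to 20000 UMIs; it ran from 66 to 265 with each library left out. Between genotypes it was 5 and became 17 with DESeq2, 428 without the filter, 10 with at least 5 rule genes and 16 at 3000 to 20000 UMIs, and ran from 1 to 400 with each library left out. For the interaction it was 4 and became 10 with DESeq2, 266 without the filter and 143 at 3000 to 20000 UMIs, and ran from 0 to 1041. The cause of these shifts was not tested. Whether replicate numbers mark a batch is not stated and could not be settled from 2 libraries per genotype (correlation of deviations 0.070 over 6373 genes); with the replicate block, 1 gene was called between genotypes and 13 in the interaction. Of 8 marker lists, 0 differed in one direction in all libraries, against 4 as deposited, 2 with at least 3 markers, and 0 to 2 with each library left out. No named gene reversed its sign. With 2 libraries per genotype no share can pass an exact test, and levels under a few CPM rest on few UMIs.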

Other observations

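Some further genes called higher in p53-response cells share a known function. They were chosen after their values were seen and belong to no list, so they are given as values alone. Besides isg15, genes linked to the interferon response were isg20_1, with 40.9, 41.8, 51.5 and 69.6 CPM in p53-response cells, against 20.3, 22.3, 22.4 and 24.9 CPM in the remaining cells, isg20 (log2 change 1.202), irf2a (0.32) and, at a few UMIs, ifit8 (3.92) and rnf213b_1 (3.25). Genes of DNA repair or nucleotide clearance were parp3 (1.90), exo5 (3.14), rev1 (1.096), itpa (0.94) and bccip (0.43). In the fixed list for DNA damage signalling and repair, by contrast, 1 of 36 tested entries was called. The median log2 change of that list was -0.06, and 16 of its entries were above 0.

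Inhibitors of cell division were also among the calls, namely the pocket protein gene rbl2 (4.98), the transcriptional repressor gene e2f7 (0.71) and tob1a (0.63). Other genes of this function were not called. Among them, cdkn1ca (-0.17) and cdkn1cb (-0.17) were lower in all 4 libraries, while btg1 changed by 0.37 and btg2 by 0.17. The genes rbl2, parp3 and exo5 were outside the risers with at least 20 CPM in p53-response cells and a rise in all 4 libraries. Their log2 changes may thus rest on few UMIs. The ribosomal protein gene rpl11, whose product binds Mdm2 in mammals, had 3148, 3748, 3416 and 2789 CPM in p53-response cells, against 2703, 2855, 2811.5 and 2312 CPM in the remaining cells (log2 change 0.38, edgeR adjusted p = 0.044). Ribosomal protein genes as a whole held a median of 10.7%, 11.5%, 11.5% and 8.87% of UMIs in p53-response cells. In remaining cells this share was 9.77%, 9.97%, 10.4% and 8.02%, so it was lower in each library. Whether rpl11 rose beyond the other ribosomal protein genes was not tested. The secreted factor gene csf1a (4.94) and the matrix protease gene mmp2 (4.64) were under 1 CPM in the remaining cells of every library.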
